A study of Homo sapiens with 12 samples.

Results

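The mitochondrial ribosomal protein genes were taken as every gene whose symbol starts with MRPL or MRPS and a digit, in array probe sets annotated to a single symbol. Of 19775 genes on the array 77 met this rule. They were 75 protein-coding genes, 48 named for the large subunit (MRPL) and 27 for the small subunit (MRPS), plus MRPL20-AS1, an antisense transcript, and MRPL45P2, a pseudogene. All 75 coding genes passed the filter on dim genes, and the antisense transcript and the pseudogene did not. A gene was read from the probe set with the highest mean over the arrays, since 37 of the coding genes had several.

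The cells were RCC4 and UMRC2, established human kidney cancer lines. Each line stably carried FoxO1(TA)ERT2, FoxO3(TA)ERT2 or, in the control called EV, ERT2 alone, under puromycin selection. In the fusions 3 AKT phosphorylation sites of the transcription factor are replaced by alanine, and 4-hydroxytamoxifen (4OHT), the ligand of the modified estrogen receptor part, moves the fusion into the nucleus. Cells received 100 nM 4OHT or the ethanol vehicle for 12 h, and each of the 12 combinations of line, construct and treatment has 1 array. The labels do not say whether an engineered line was 1 clone or a pool, and all of them keep their own FoxO genes, described by the submitters as poorly expressed.

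Mitochondria keep a small genome of their own, and its messages for subunits of the respiratory chain are translated by a ribosome inside the organelle. The RNA of that ribosome comes from mitochondrial DNA, while every one of its proteins is encoded in the nucleus, made in the cytosol and imported. Many of these proteins descend from bacterial ribosomal proteins and others are found only in mitochondrial ribosomes. In mammals the promoters of nuclear genes for mitochondria are known to be served by NRF1 and the ETS factor GABP, with coactivators of the PGC-1 family, and MYC is known to raise such genes as well.

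The deposited arrays did not share a level. Their median intensity ran from 71.1 to 138.7, and the RCC4 FoxO3 array with 4OHT had a spike-in level of 2515, near the 2239 to 2463 of the UMRC2 arrays and below the 4212 to 4699 of the other RCC4 arrays, so quantile-normalised log2 levels are used throughout. The ERT2 part was read by 5 of 9 ESR1 probe sets, picked because under vehicle they were well above EV of the same cell line in every fusion line. Their median log2 level was 8.74 with 4OHT and 9.22 with vehicle in RCC4 FoxO1. It was 11.91 to 13.23 in the other fusion arrays and 4.63 to 5.79 in the EV arrays. The low EV level follows from how the probe sets were picked, so it cannot show whether the EV lines express the ERT2 named in their labels. Of the renal and epithelial markers PAX8, KRT8, KRT18 and VIM were at or above the array median in 12 of 12 arrays, PAX2 in 11 and CDH6 in 10. Of the markers of other cells PTPRC, VWF and ALB reached the median in 0 arrays, PDGFRB in 1, CD3E in 9, and PECAM1 and DCN in 12.

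Within each cell line and construct the response was the log2 level with 4OHT minus the log2 level with vehicle. With the EV response of the same cell line subtracted, the large subunit genes had a median log2 difference of -0.41 in RCC4 FoxO3, -0.40 in UMRC2 FoxO3, -0.03 in RCC4 FoxO1 and -0.13 in UMRC2 FoxO1. The small subunit medians were -0.26 in RCC4 FoxO3, -0.33 in UMRC2 FoxO3, -0.15 in RCC4 FoxO1 and -0.31 in UMRC2 FoxO1. Over all 14285 genes tested the same medians were -0.09, -0.06, -0.01 and -0.03. In RCC4 FoxO3 33 of 75 members were at least 1.41-fold below EV and 0 at least 1.41-fold above it, where 29.8% and 23.1% of all genes tested were. In UMRC2 FoxO3 the counts were 30 and 1, where 29.1% and 23.7% of all genes were. In RCC4 FoxO1 they were 3 and 1 (16.3% and 15.3% of all genes), so changes of this size were rarer among the members than among all genes in both directions. In UMRC2 FoxO1 they were 18 and 2 (20.2% and 17.5% of all genes), a share of lower members near that of all genes. In these bulk RNA samples fewer cells in some state and less transcript per cell cannot be told apart. The EV responses themselves had medians of -0.05 in RCC4 and 0.02 in UMRC2 over the 75 members.

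**Figure D1:**
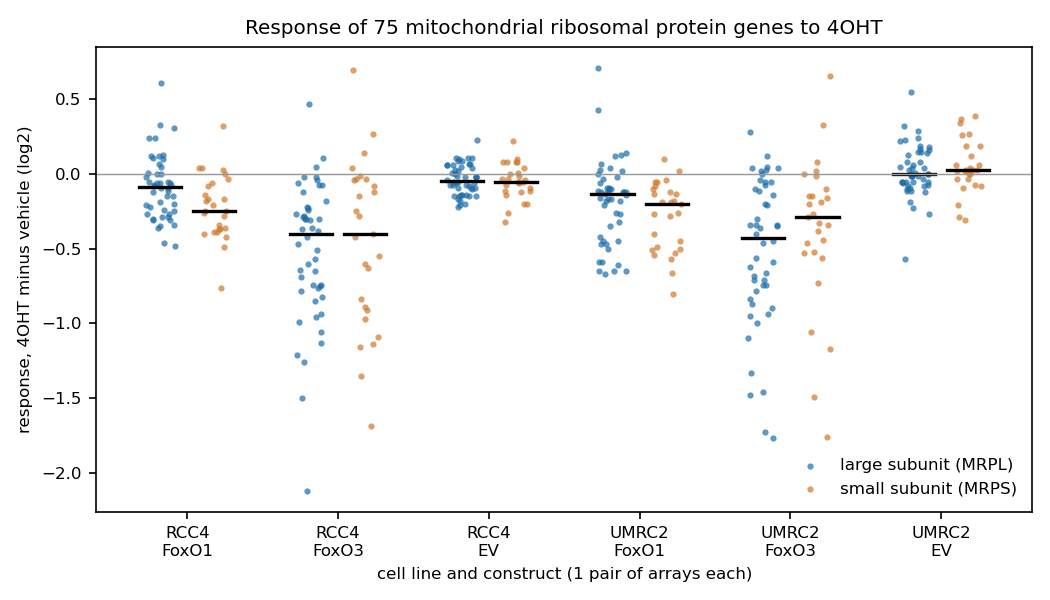
Response to 4OHT (log2 level with 4OHT minus log2 level with vehicle) of the 75 coding genes in the 6 engineered lines, 1 point per gene, large subunit in blue and small subunit in orange, with black bars at the medians. The FoxO3 points spread furthest below 0 in both cell lines, with medians of -0.40 for both subunits in RCC4, while the EV points stay near 0.

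For 34 of the 75 members (45.3%) all 4 fusion responses lay below both EV responses, against 15.7% of all genes tested. For 1 member, MRPL37, all 4 lay above them (1.33%), against 12% of all genes tested. The 34 comprised 22 of 48 large and 12 of 27 small subunit genes.

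Averaged over FoxO1 and FoxO3, 12 members were lower than in EV and 0 were higher. They were 9 of 48 large subunit genes and 3 of 27 small subunit genes, where 4.70% of all genes tested were lower. The median log2 difference was -0.25 for the large and -0.27 for the small subunit, against -0.05 for all genes. The test was limma with Benjamini-Hochberg adjustment over all genes tested, in which the 2 cell lines are the replicates of a construct, so the p-values measure how far a difference repeats between the cell lines and not between cultures. Before adjustment 25 of 75 members had a p under 0.05, as had 23.1% of all genes. The count of 12 rested on the EV and FoxO1 pairs of UMRC2 and the EV pair of RCC4, being 0 without the UMRC2 EV pair, 4 without the UMRC2 FoxO1 pair and 6 without the RCC4 EV pair. It was also 0 with the values as deposited, with no filter on dim genes or with a constant prior variance, and 4 when probe sets of a gene were averaged. The calls over all genes, 1113 in either direction, fell as well without each of these pairs. They were 184 as deposited, 0 with no filter or a constant prior variance, and 577 when probe sets were averaged.

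In the large subunit MRPL3, whose bacterial counterpart lies near the catalytic centre of the ribosome, had the smallest adjusted p of the family. Its log2 level was 12.85 with 4OHT against 13.15 with vehicle in RCC4 FoxO1, 12.17 against 12.85 in UMRC2 FoxO1, 11.94 against 13.20 in RCC4 FoxO3 and 11.26 against 12.74 in UMRC2 FoxO3. In EV cells it was 13.16 with 4OHT against 13.19 with vehicle in RCC4 and 12.95 against 12.95 in UMRC2. Within each cell line both fusion arrays with 4OHT were below every other array, and across the cell lines the groups overlapped at RCC4 FoxO1. The log2 difference of the fusion responses from EV was -0.92 ± 0.12 (SE, as after every difference here; n = 2 cell lines per construct; limma adjusted p = 0.00817).

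MRPL12, which forms the stalk of the large subunit and is also known to bind the mitochondrial RNA polymerase, had log2 levels of 10.56 with 4OHT against 11.62 with vehicle in RCC4 FoxO3 and 9.84 against 11.30 in UMRC2 FoxO3. In the FoxO1 lines it was 11.26 against 11.60 in RCC4 and 10.51 against 11.10 in UMRC2, and in EV 11.57 against 11.45 in RCC4 and 11.06 against 10.98 in UMRC2. Every fusion line was lower with 4OHT and both EV lines slightly higher. The log2 difference from EV was -0.96 ± 0.15 (limma adjusted p = 0.0138).

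MRPL17, a conserved large subunit protein, had log2 levels of 9.55 with 4OHT against 11.05 with vehicle in RCC4 FoxO3 and 10.06 against 11.83 in UMRC2 FoxO3. The FoxO1 lines gave 10.49 against 10.77 in RCC4 and 11.24 against 11.89 in UMRC2, and EV gave 10.81 against 10.96 in RCC4 and 11.82 against 11.66 in UMRC2. The FoxO3 arrays with 4OHT were the lowest of their cell line, and the log2 difference from EV was -1.06 ± 0.18 (limma adjusted p = 0.0178). MRPL34, another conserved protein, read 9.60 with 4OHT against 11.71 with vehicle in RCC4 FoxO3 and 10.24 against 11.34 in UMRC2 FoxO3, 11.20 against 11.68 and 11.08 against 11.36 in RCC4 and UMRC2 FoxO1, and 11.72 against 11.69 and 11.49 against 11.42 in RCC4 and UMRC2 EV. Its arrays with 4OHT in the 4 fusion lines were all below the other 8, with a log2 difference of -1.04 ± 0.22 (limma adjusted p = 0.031). The other large subunit genes that passed were MRPL4 (-0.84), MRPL24 (-0.74), MRPL1 (-0.71), MRPL18 (-0.69) and MRPL32 (-0.68), with adjusted p between 0.0179 and 0.0495. MRPL2 had a log2 difference of -1.04 ± 0.31 that missed the threshold (adjusted p = 0.0879).

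In the small subunit MRPS26, a protein found only in mitochondrial ribosomes, showed the largest difference of the family. Its log2 level was 9.50 with 4OHT against 11.19 with vehicle in RCC4 FoxO3, 9.05 against 10.82 in UMRC2 FoxO3, 10.40 against 11.16 in RCC4 FoxO1 and 9.97 against 10.63 in UMRC2 FoxO1. In EV it was 10.90 with 4OHT against 11.10 with vehicle in RCC4 and 10.72 against 10.66 in UMRC2. The 4 fusion arrays with 4OHT did not overlap the other 8, and the log2 difference was -1.15 ± 0.17 (limma adjusted p = 0.0108). MRPS12, the counterpart of the bacterial decoding protein S12, read 11.04 against 12.39 in RCC4 FoxO3, 11.49 against 12.55 in UMRC2 FoxO3, 11.97 against 12.34 in RCC4 FoxO1 and 12.08 against 12.62 in UMRC2 FoxO1, each with 4OHT against vehicle. In EV its level with 4OHT was 12.35 against 12.34 with vehicle in RCC4 and 12.69 against 12.69 in UMRC2. No EV or vehicle array was as low as a fusion array with 4OHT, and the log2 difference was -0.84 ± 0.14 (limma adjusted p = 0.0142). MRPS27, a pentatricopeptide repeat protein of the small subunit, differed by -0.85 ± 0.16 (adjusted p = 0.0249).

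**Figure D2:**
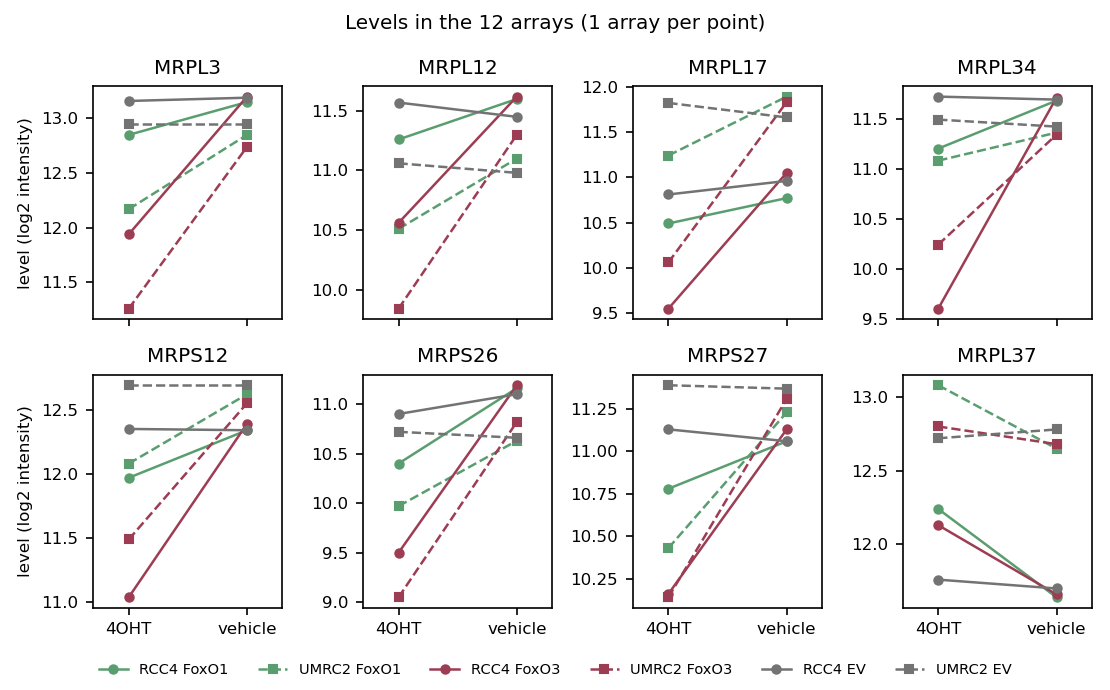
Log2 level with 4OHT (left) and with vehicle (right) of 8 members in the 6 engineered lines, 1 array per point, RCC4 solid and UMRC2 dashed. In 7 of the panels the fusion lines slope down toward 4OHT, FoxO3 more steeply than FoxO1, while the EV lines are near flat. MRPL37 slopes the other way.

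The bases just upstream of 6 of these genes are shown because the genes moved together or, for MRPL37, against the rest. RefSeq promoters (GRCh38.p14) were listed for 67 of the 75 members, and each line gives the 120 bases before the annotated start, read 5′ to 3′ along the gene's strand. Capitals mark a match to CCGGAAG, a core bound by ETS factors such as GABPA, or to TGCGCA, the core of the NRF1 site, on either strand.
MRPL3, chr3:131502972-131503091, - strand: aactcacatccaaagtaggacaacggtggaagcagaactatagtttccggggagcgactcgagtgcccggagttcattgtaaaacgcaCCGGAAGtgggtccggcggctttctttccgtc
MRPL12, chr17:81703247-81703366, + strand: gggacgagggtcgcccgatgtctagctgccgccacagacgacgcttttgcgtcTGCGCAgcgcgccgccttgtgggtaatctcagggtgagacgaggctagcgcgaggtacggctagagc
MRPL17, chr11:6683341-6683460, - strand: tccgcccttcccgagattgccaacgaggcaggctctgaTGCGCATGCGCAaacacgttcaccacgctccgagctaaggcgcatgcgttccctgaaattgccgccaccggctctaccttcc
MRPS26, chr20:3045932-3046051, + strand: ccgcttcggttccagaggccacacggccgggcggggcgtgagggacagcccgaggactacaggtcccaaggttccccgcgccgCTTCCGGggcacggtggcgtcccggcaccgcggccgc
MRPS12, chr19:38930824-38930943, + strand: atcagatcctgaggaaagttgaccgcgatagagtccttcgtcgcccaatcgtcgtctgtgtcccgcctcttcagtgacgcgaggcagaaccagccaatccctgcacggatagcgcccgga
MRPL37, chr1:54200047-54200166, + strand: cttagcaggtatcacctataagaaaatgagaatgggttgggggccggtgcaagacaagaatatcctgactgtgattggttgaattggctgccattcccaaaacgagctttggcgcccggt
MRPL3 and MRPS26 each held 1 ETS core, MRPL12 held 1 NRF1 core and MRPL17 held 2 NRF1 cores side by side. The MRPS12 and MRPL37 windows held neither. MRPS12 starts next to SARS2, the mitochondrial seryl-tRNA synthetase gene, which lies upstream of it. Over the full 250 upstream bases 22 of 67 members (32.8%) held the ETS core, against 8.82% of 27305 promoters in all, and 13 (19.4%) held the NRF1 core, against 7.05%. The E-box CACGTG, the site of MYC and related factors, was in 6 (8.96%), against 6.49%, and the forkhead site GTAAACA in 0, against 2.98%. Of the 19 members with a promoter that were lower under FoxO3, 4 held the ETS core, 5 the NRF1 core and 0 the E-box, against 18, 8 and 6 of the other 48. The 4 motifs were searched on both strands, and a match describes the letters and not binding.

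Under FoxO3 alone 20 members were lower than in EV and 0 higher, against 10.0% of all genes lower. They were 15 of 48 large and 5 of 27 small subunit genes, and the medians were -0.39 and -0.35 on the log2 scale, against -0.07 for all genes. At an unadjusted p under 0.05 there were 32 of 75 members and 30.2% of all genes. Without the RCC4 FoxO3 pair, whose array with 4OHT had a spike-in level below the other RCC4 arrays, 15 members passed, and 10 did so without UMRC2 EV. On the deposited scale 4 members passed, and with no filter on dim genes or a constant prior variance 0 did. The calls over all genes, 2377 in either direction, fell as well without each of these pairs. They were 583 as deposited and 0 with no filter or a constant prior variance.

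The largest log2 differences under FoxO3 were those of MRPS26 (-1.66 ± 0.19, limma adjusted p = 0.0025), MRPL34 (-1.65 ± 0.25), MRPL17 (-1.64 ± 0.21), MRPL2 (-1.53 ± 0.36), MRPL3 (-1.36 ± 0.14, limma adjusted p = 0.0018) and MRPL12 (-1.36 ± 0.18). As folds, the ratio of 4OHT to vehicle under FoxO3 was 0.317 times that in EV for MRPS26 and 0.389 times for MRPL3. MRPL3, MRPL12, MRPL17, MRPL18, MRPL34, MRPS12 and MRPS26 passed the threshold with each of the 6 pairs left out in turn. MRPL2, which helps form the peptidyl transferase region, varied between the cell lines. Its log2 level was 8.90 with 4OHT against 9.84 with vehicle in RCC4 FoxO3 and 8.51 against 10.24 in UMRC2 FoxO3, while in UMRC2 EV it was 10.75 against 10.20. The UMRC2 EV array with 4OHT was the highest of the 12, and left-out pairs moved the log2 difference of MRPL2 between -2.21 and -0.86. Another bright probe set of MRPL2 gave -0.42.

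Members that passed under FoxO3 and not in the average of the fusions were MRPL2, MRPS18B (-1.26 ± 0.25), MRPS2 (-0.97 ± 0.20), MRPL38 (-0.82), MRPL14 (-0.80), MRPL39 (-0.78), MRPL57 (-0.72) and MRPL27 (-0.57). The comparisons share the same EV and FoxO3 arrays, so this is no independent list. MRPS18B is 1 of 3 relatives of the bacterial protein S18. The other two did not pass, with log2 differences of -0.35 ± 0.19 for MRPS18C, the counterpart in the small subunit (adjusted p = 0.266), and -0.07 ± 0.20 for MRPS18A (adjusted p = 0.864). MRPS18A and MRPS30 sit in the large subunit of the solved structures despite their names. Counting them there left 15 of 50 large and 5 of 25 small subunit genes lower, with medians of -0.39 and -0.35.

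The proteins were also split by whether they take the place of a bacterial ribosomal protein. Of those that do, 12 of 30 in the large subunit were lower under FoxO3 (median log2 difference -0.45) and 2 of 15 in the small subunit (MRPS2 and MRPS12, median -0.27). Of those that do not, 3 of 20 in the large subunit were lower (MRPL38, MRPL39 and MRPL57, median -0.32) and 3 of 10 in the small subunit (MRPS18B, MRPS26 and MRPS27, median -0.57). MRPS18A and MRPS18B were put in the second class although they are related to S18, and counting them in the first, an alternative chosen after seeing the data, gave 12 of 31 against 3 of 19 in the large and 3 of 16 against 2 of 9 in the small subunit. These counts stand against 10.0% of all genes lower under FoxO3, and the medians against -0.07 for all genes. The difference between these classes was not tested.

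**Figure D3:**
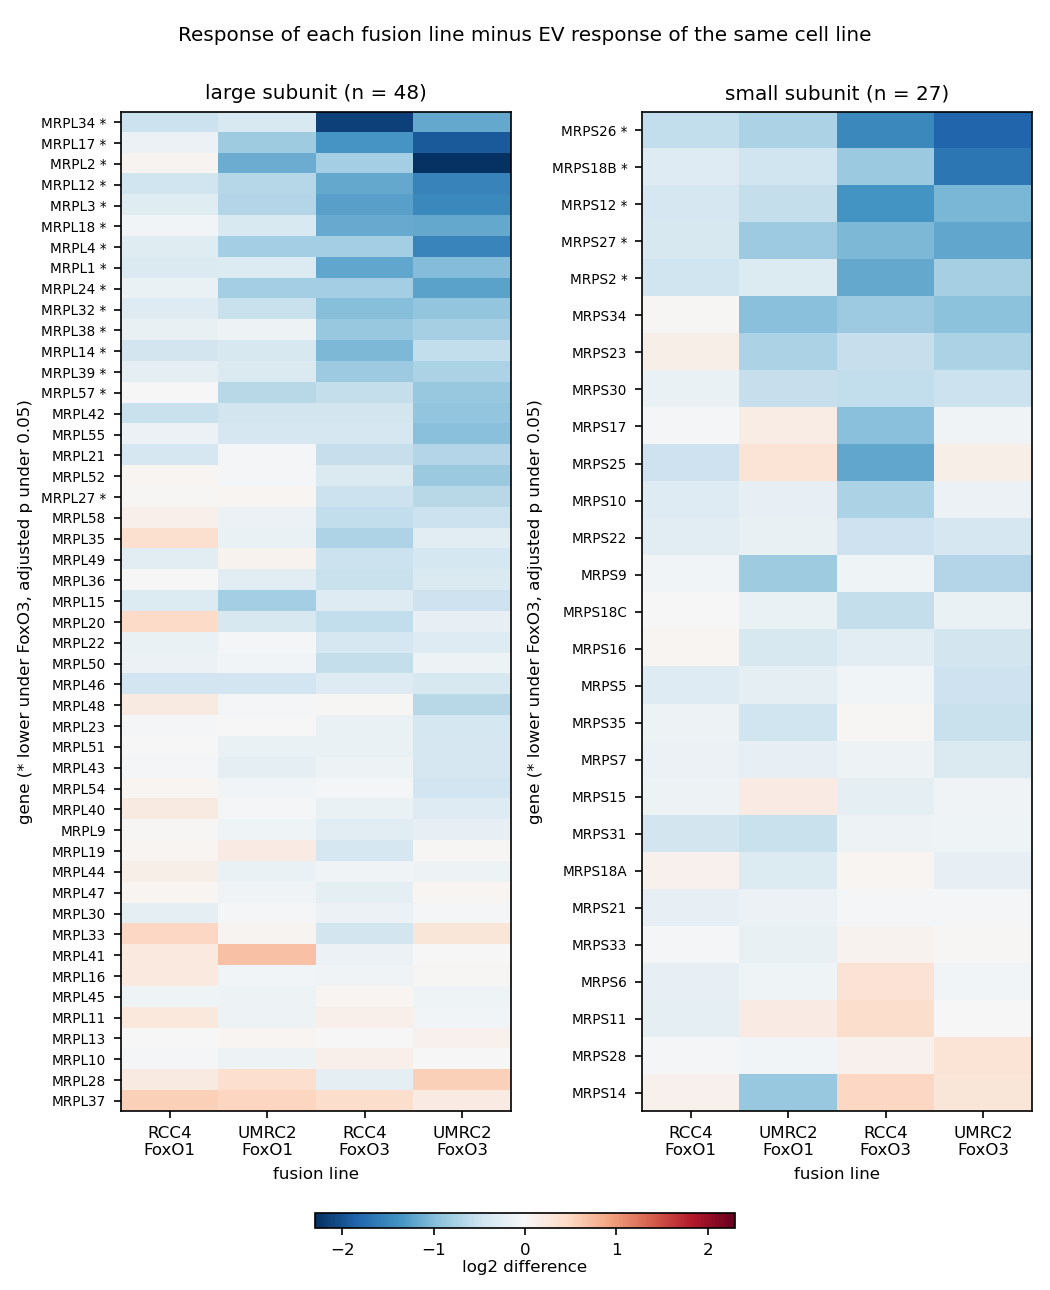
Log2 response of each fusion line minus the EV response of its cell line for the 48 large (left) and 27 small (right) subunit genes, ordered by the mean of the FoxO3 columns, blue for lower than EV and red for higher. Stars mark the 20 genes lower under FoxO3. The colour deepens from the FoxO1 to the FoxO3 columns at the top of both panels and is pale at the bottom.

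Under FoxO1 alone 0 of 75 members passed the threshold, as did 0.0840% of all genes in either direction. At an unadjusted p under 0.05 there were 11 of 75 members and 10.0% of all genes, and that number was 1 without the UMRC2 FoxO1 pair or with a constant prior variance, 2 without the UMRC2 EV pair, 4 with each array scaled to a common median and 0 on the deposited scale. Shares of all genes at an unadjusted p were not counted in those settings. The medians were -0.10 for the large and -0.24 for the small subunit, and -0.05 and -0.13 without the UMRC2 EV pair. The 3 lowest log2 differences of each subunit were those of MRPS26 (-0.64 ± 0.19, limma adjusted p = 0.344), MRPS27 (-0.59 ± 0.19), MRPL12 (-0.56 ± 0.18), MRPL15 (-0.55 ± 0.15), MRPL2 (-0.54 ± 0.36) and MRPS34 (-0.47 ± 0.27). The highest were MRPL37 (0.52 ± 0.14, adjusted p = 0.263), MRPL41 (0.45 ± 0.16) and MRPL28 (0.29 ± 0.24) in the large subunit, and no small subunit gene was above 0.06.

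Tested against FoxO1, the FoxO3 response was lower for 7 members and higher for 0, against 3.65% of all genes lower. The 7 were MRPL34 (-1.23 ± 0.25), MRPL17 (-1.17 ± 0.21), MRPL18 (-0.96 ± 0.14, limma adjusted p = 0.017), MRPL3 (-0.88 ± 0.14), MRPL12 (-0.80 ± 0.18), MRPS26 (-1.02 ± 0.19) and MRPS12 (-0.75 ± 0.16). MRPL18, a conserved protein also known to carry the small ribosomal RNA called 5S into mitochondria, showed the contrast plainly. Its log2 level with 4OHT was 11.27 against 12.40 with vehicle in RCC4 FoxO3 and 11.88 against 12.83 in UMRC2 FoxO3, but 12.34 against 12.36 in RCC4 FoxO1 and 12.71 against 12.83 in UMRC2 FoxO1. The ESR1 probe sets read higher in the FoxO3 than in the FoxO1 lines, with medians under vehicle of 12.49 against 9.22 in RCC4 and 13.23 against 12.29 in UMRC2, and their part in the difference was not tested. Leaving out the RCC4 FoxO1 pair left 0 members, and the number was 2 without the UMRC2 FoxO1 pair, 4 with each array scaled to a common median, 3 when probe sets of a gene were averaged, and 0 with the values as deposited, no filter on dim genes or a constant prior variance. The calls over all genes, 831 in either direction, fell as well without each of these pairs. They were 672 with each array scaled to a common median, 360 when probe sets were averaged and 46 as deposited. With no filter or a constant prior variance they were 0. Before adjustment 24 of 75 members had a p under 0.05, as had 21.8% of all genes.

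MRPL37 went against the family. Its log2 level with 4OHT was 12.24 against 11.64 with vehicle in RCC4 FoxO1, 13.08 against 12.65 in UMRC2 FoxO1, 12.13 against 11.66 in RCC4 FoxO3 and 12.80 against 12.68 in UMRC2 FoxO3. In EV it was 11.76 against 11.70 in RCC4 and 12.72 against 12.78 in UMRC2. Within each cell line both fusion arrays with 4OHT were above all other arrays, but the log2 difference of 0.41 ± 0.12 missed the threshold (limma adjusted p = 0.078). Next highest were MRPL28 (0.23 ± 0.21) and MRPL41 (0.19 ± 0.14).

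Other members stayed near 0 in the average of the fusions over EV. Among large subunit genes MRPL10, which carries the MRPL12 stalk, had a log2 difference of -0.01 ± 0.15, MRPL13 of 0.03 ± 0.14, MRPL16 of 0.03 ± 0.16 and MRPL11 of 0.04 ± 0.15. In the small subunit MRPS6, MRPS14 and MRPS33 had 0.00 ± 0.15, 0.00 ± 0.22 and -0.03 ± 0.12. The value of MRPS14 averaged log2 differences from EV of 0.47 in RCC4 FoxO3, 0.28 in UMRC2 FoxO3, 0.10 in RCC4 FoxO1 and -0.88 in UMRC2 FoxO1. Members in which mutations are known to cause mitochondrial disease were spread over this range. MRPL3 and MRPL12 are given above, and under FoxO3 alone MRPS2 passed, while MRPS34 (-0.90 ± 0.27, adjusted p = 0.0664), MRPS22 (-0.43 ± 0.17), MRPS16 (-0.34 ± 0.17), MRPL44 (-0.10 ± 0.19) and MRPS28 (0.20 ± 0.16) did not.

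In EV cells 4OHT moved 0 members past the threshold in limma, at an unadjusted p under 0.05 as well, as it moved 0% of all genes. The widest EV responses were -0.33 ± 0.15 for MRPL50 and 0.30 ± 0.18 for MRPS14 on the log2 scale. The response of the fusions over EV differed between RCC4 and UMRC2 for 0 members, again also unadjusted, and for 0% of all genes, with 2.37% of all genes at an unadjusted p under 0.05 in either test. In the test between the cell lines the FoxO1 and FoxO3 pairs of a line stood as its replicates. Differences between FoxO1 and FoxO3 therefore entered its error. It also left few degrees of freedom, so it cannot show that the cell lines respond alike. The point differences in log2 (RCC4 minus UMRC2) ran from -1.05 ± 0.63 for MRPS25 to 1.35 ± 0.88 for MRPL2. MRPS25 had a log2 difference from EV of -1.19 in RCC4 FoxO3 and 0.14 in UMRC2 FoxO3.

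Without 4OHT the members differed in level between the cell lines in both directions. In the 6 vehicle arrays 32 members were higher in RCC4 than in UMRC2 (26.6% of all genes were) and 20 were lower (23.6% of all genes), 22 and 12 in the large subunit and 10 and 8 in the small subunit. The split depended on the scaling, with 63 higher and 3 lower in the values as deposited, where the median of all genes was 0.77 higher in RCC4, and 35 higher and 12 lower with each array scaled to a common median. Of the 52 called members, 14 changed sign in the values as deposited, and 0 did once that shift of all genes was subtracted. In the vehicle arrays the deposited spike-in level was 4212 to 4339 in RCC4 and 2239 to 2463 in UMRC2. Array level and cell line therefore cannot be told apart in this comparison. Levels of different probe sets are not on a common scale, and the members' means over 12 arrays ran from 9.30 for MRPL46 to 13.33 for MRPS15.

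MRPS25, a small subunit protein, was furthest above in RCC4, with a log2 level of 10.51 ± 0.03 in RCC4 against 9.05 ± 0.19 in UMRC2 (SD, n = 3 each). The difference was 1.46 ± 0.11 (limma adjusted p = 7.97e-05). Here n counts the 3 engineered lines made from a cell line, EV, FoxO1 and FoxO3, with 1 vehicle array each. The p-values of this comparison measure how far a difference held over these engineered lines, and not between repeat cultures. In the large subunit MRPL35 differed by 1.06 ± 0.11, MRPL20 by 0.92 ± 0.13 and MRPL41 by 0.87 ± 0.05. On the other side MRPL46 had 8.56 ± 0.34 in RCC4 against 10.02 ± 0.13 in UMRC2, a difference of -1.46 ± 0.12 (limma adjusted p = 0.000131). MRPL16 (-1.24 ± 0.06), MRPL14 (-1.24 ± 0.06), MRPL37 (-1.04 ± 0.05) and MRPL17 (-0.86 ± 0.09) followed, and in the small subunit MRPS11 (-0.62 ± 0.09), MRPS6 (-0.59 ± 0.08), MRPS18A (-0.55 ± 0.07) and MRPS18B (-0.54 ± 0.10), of which MRPS11, MRPS6, MRPS18A and MRPS18B turn positive as deposited. Vehicle arrays of the cell lines did not overlap for 59 of the 75 members and for 59.8% of all genes. A single probe set can read a cell line difference of its own, and of 19 called members with another bright probe set 5 gave the opposite sign there (MRPL2, MRPL35, MRPS12, MRPS14 and MRPS15). For the fusions over EV the same check covered 2 members in the average and 6 under FoxO3, and 0 gave the opposite sign. The check was of sign only, and sizes differed. Under FoxO3 MRPL2 had a log2 difference of -1.53 in the probe set used and -0.42 in the other. MRPL57 had -0.72 in the one used and -1.03, -0.07 and -0.46 in the others. MRPS12 had -1.21 in the one used and -2.38, -0.87 and -0.46 in the others.

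**Figure D4:**
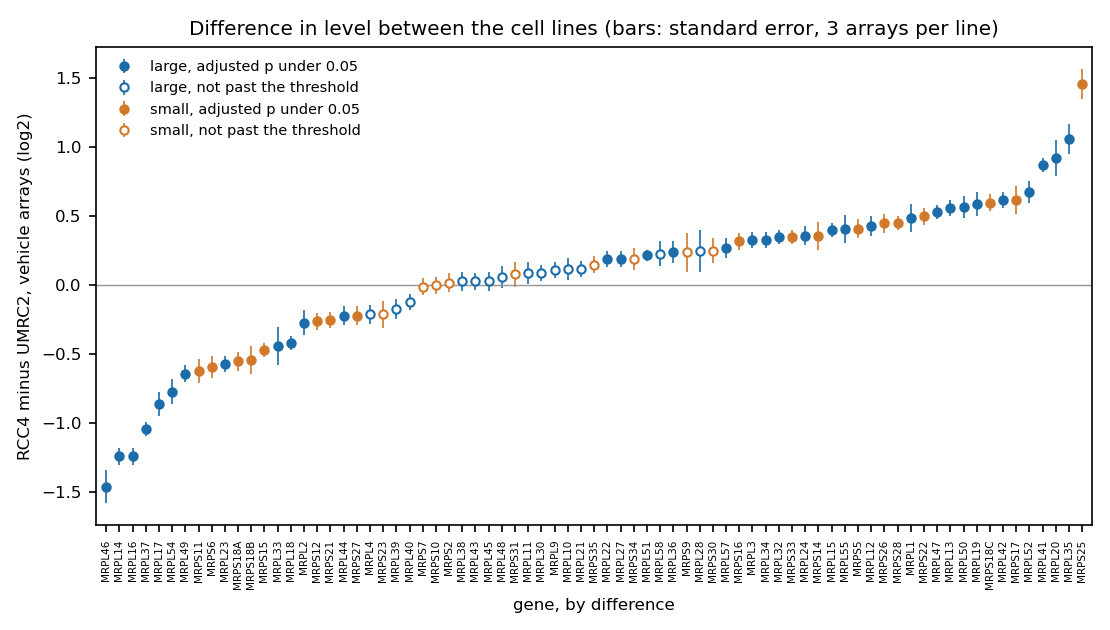
Difference in log2 level between RCC4 and UMRC2 in the vehicle arrays for the 75 coding genes, ordered by size, with standard errors, blue for the large and orange for the small subunit, filled where the adjusted p was under 0.05. Both subunits are found at both ends, MRPS25 at 1.46 and MRPL46 at -1.46.

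Genes that work with the mitochondrial ribosome were listed beside its proteins, and their counts stand against 10.0% of all genes lower and 6.61% higher under FoxO3. Under FoxO3 3 of 21 assembly factors were lower and 0 higher (median log2 difference -0.44), namely the ribosomal RNA methyltransferase MRM2 (-1.02 ± 0.18), METTL17 (-0.79 ± 0.21) and MALSU1 (-0.61 ± 0.13). Of 13 translation factors 2 were lower, the RNA-binding LRPPRC (-1.10 ± 0.17) and the elongation factor GFM1 (-0.86 ± 0.19), and 1 was higher, the initiation factor MTIF3 (0.86 ± 0.23, limma adjusted p = 0.045). Of 15 mitochondrial tRNA synthetases 3 were lower, EARS2 (-1.61 ± 0.24), CARS2 (-1.58 ± 0.21) and MARS2 (-1.11 ± 0.27). Of 9 genes of mitochondrial DNA maintenance and transcription 4 were lower, among them the helicase TWNK (-1.84 ± 0.28) and the RNA polymerase POLRMT (-1.18 ± 0.20). Of 5 proteins of the ribosome or bound to it under other symbols 1 was lower, the membrane insertase OXA1L (-0.86 ± 0.18). Of 15 other mitochondrial proteins 9 were lower and 0 higher, led by the import proteins TIMM44 (-1.24 ± 0.24), TOMM40 (-1.17 ± 0.17) and HSPA9 (-1.15 ± 0.15).

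Of 8 listed regulators of such genes 4 were lower and 0 higher in the average of the fusions over EV, where 4.70% of all genes were lower, and 4 did not pass. Under FoxO3 alone, used for the lists above, 3 of the 8 were lower and 0 higher, against 10.0% of all genes lower. MYC had a log2 difference of -2.22 ± 0.32 (limma adjusted p = 0.00997), with responses of -3.10 in RCC4 FoxO3, -1.67 in UMRC2 FoxO3, -1.72 in RCC4 FoxO1 and -2.01 in UMRC2 FoxO1, against 0.06 in RCC4 EV and 0.13 in UMRC2 EV. The PGC-1 family members PPRC1 (-1.82 ± 0.22), PPARGC1B (-1.78 ± 0.40) and PPARGC1A (-1.48 ± 0.34) passed too. With 4OHT PPARGC1B and PPARGC1A fell into the dim range, below the array median of 6.67 in log2. PPARGC1B was at 6.25 in RCC4 FoxO3 and 5.30 in UMRC2 FoxO3, and PPARGC1A at 5.51 in UMRC2 FoxO1 and 6.12 in UMRC2 FoxO3. NRF1 (-0.45 ± 0.24, adjusted p = 0.326), the nuclear receptor ESRRA (-0.52 ± 0.20) and the GABP subunits GABPA (-0.03 ± 0.21) and GABPB1 (-0.59 ± 0.22) did not.

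The ribosome of the cytosol and the respiratory chain gave other values. Of 51 cytosolic ribosomal protein genes 0 passed in either direction under FoxO3 (1 at an unadjusted p under 0.05), with a median log2 difference of 0 and a range from -0.46 to 0.18. Of 65 nuclear genes for subunits of the respiratory chain and ATP synthase, 2 were higher, NDUFS1 (0.77 ± 0.17) and ATP5F1E (0.68 ± 0.11), and 2 were lower, COX5A (-0.66 ± 0.13) and NDUFS3 (-0.65 ± 0.17), with a median of 0.10. All fusion responses were below both EV responses in 9.8% of the cytosolic and 9.23% of the respiratory genes, against 15.7% of all genes tested. They were above both in 3.92% of the cytosolic and 16.9% of the respiratory genes, against 12% of all genes. The differences between these families and the mitochondrial ribosomal protein genes were not tested as such.

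**Figure D5:**
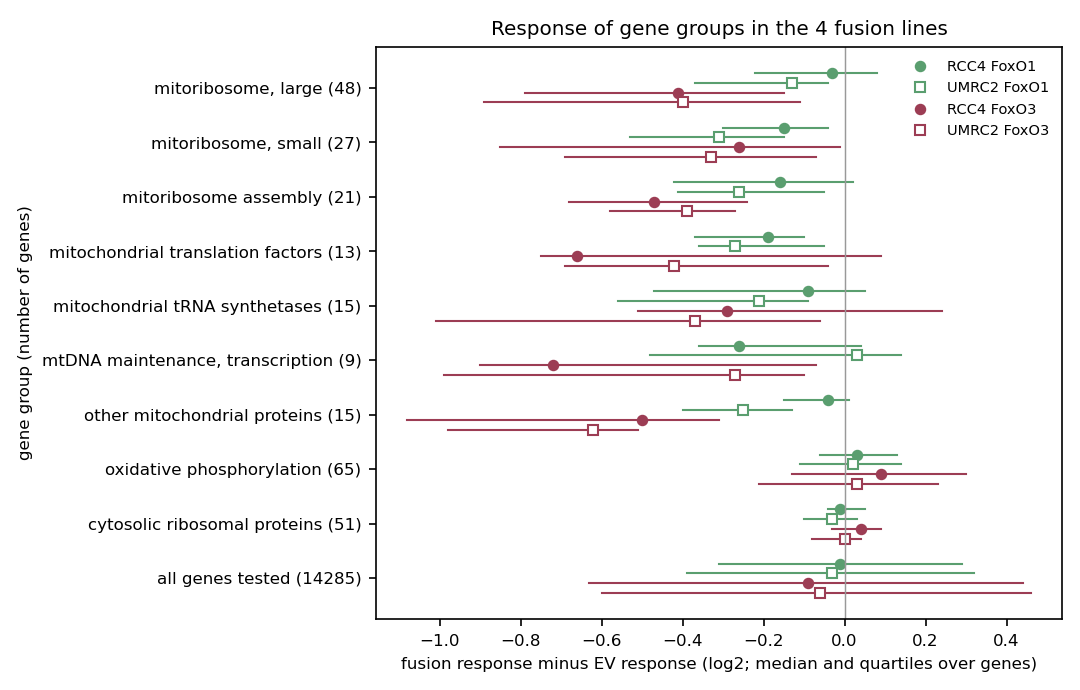
Median (points) and quartiles (bars) of the log2 response of each fusion line minus the EV response of its cell line, for the large and small mitochondrial ribosomal subunits, related gene groups and all genes tested. FoxO3 medians of the mitochondrial ribosome lie between -0.41 and -0.26 in both cell lines, while those of the cytosolic ribosomal proteins lie between 0 and 0.04.

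The genes outside the family whose 12 levels ran most like the members' mean deviation were PALB2 and NDC1 (Pearson r of 0.988 each), SUV39H2 and UTP11 (0.986 each) and FAM86C1P (0.984). The 12 arrays share cell lines and treatments, so these r values only describe likeness.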

How the data were processed

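Total RNA of 12 cultures was read on Affymetrix U133 Plus 2.0 arrays. The authors deposited MAS5 intensity values, linear, per the labels and the submitters' processing notes, and the MAS5 version and scaling target are not given in the sources used here. The deposited intensity values of all probe sets, with 62 control probe sets among them, were quantile normalised (limma 3.58.1, R 4.3.3). Values below the 20th percentile of the probe sets other than controls were raised to it (log2 of 4.21), and log2 was taken. The controls were left out of the array medians and the gene levels. Of 54675 probe sets 41091 have 1 gene symbol in the platform annotation, 1801 several and 11721 none. Each gene kept the probe set with the highest mean, and 14285 of 19775 genes entered the tests, having reached their array's median on 2 or more arrays. The 6 responses (4OHT minus vehicle) were fitted with limma by construct and cell line, with a variance trend on mean level, 2 residual degrees of freedom and Benjamini-Hochberg adjustment over all genes tested, two-sided, at 0.05. The difference between the cell lines in response was fitted to the 6 responses by cell line, fusion (FoxO or EV) and their product. The 6 vehicle arrays were fitted by cell line and construct. The number of arrays limits the precision. Genes named are, per subunit and comparison, up to 8 past the threshold in each direction by size of change, or the 3 highest and 3 lowest as plain values where fewer than 3 passed, with members nearest to 0, members against the majority, members whose probe sets disagree, a list of disease and structural members, up to 3 genes per related list and the 5 genes most like the members' mean. Further called members of FoxO3 over EV, MRPL57, MRPL27 and others past the first 8, are named to account for all, and MRPS25 and MRPS14 by pair after their values were seen. The members, gene lists and classes were chosen with earlier results of these data known. Scripts were tested on simulated data. Alternatives were other scalings, floors, filters, probe set rules, prior variances and leaving out each pair.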

Additional observations from a re-analysis of the deposited data

How the results depend on the processing

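The counts of members past the threshold depended on how the variance was shrunk and on single pairs, and so did the calls over all genes. Over all genes, in either direction, 1113 passed in the average of the fusions over EV, 2377 in FoxO3 over EV and 831 in FoxO3 over FoxO1. As deposited these were 184, 583 and 46. With no filter or a constant prior variance 0 of all genes passed in each of them. For the average of the fusions over EV the count of 12 became 0 with the values as deposited, 0 with no filter on dim genes, 4 when probe sets of a gene were averaged and 0 with a constant prior variance, and 0 to 14 with a pair left out. For FoxO3 over EV the count of 20 became 4 as deposited, 0 with no filter and 0 with a constant prior variance, and 10 to 20 with a pair left out. For FoxO3 over FoxO1 the count of 7 became 0 as deposited, 4 with each array scaled to a common median, 0 with no filter, 3 with the mean of probe sets and 0 with a constant prior variance, and 0 to 8 with a pair left out. With no filter 27, 32 and 23 members had an unadjusted p under 0.05 in these comparisons, and with a constant prior variance 17, 22 and 11. Shares of all genes at an unadjusted p were not counted in these settings. The causes were not tested. FoxO1 over EV and the EV response kept a count of 0 in the alternatives run, and the difference between the cell lines in response could not be fitted without an EV pair. The count of 52 between the cell lines ranged from 37 to 66, and from 41 to 50 with an array left out. As deposited, the median of all genes under FoxO3 was -0.42, and relative to it the members' medians were -0.33 (large) and -0.31 (small), against -0.32 and -0.28 after quantile normalisation. Between RCC4 and UMRC2 the sign turned as deposited for 14 called members, MRPL2 (0.46), MRPL18 (0.47), MRPL23 (0.19), MRPL33 (0.41), MRPL44 (0.52), MRPL49 (0.19), MRPS6 (0.24), MRPS11 (0.09), MRPS12 (0.61), MRPS15 (0.50), MRPS18A (0.18), MRPS18B (0.19), MRPS21 (0.54) and MRPS27 (0.54), where all genes shifted by 0.77. Averaging probe sets turned it for MRPS12 (0.33) and MRPS14 (-0.08) among the members named by the rule. The 4OHT and vehicle arrays of a line are paired in its response and the cell line is a term of the fits. The labels give no replicate numbers, so there was no further pairing to test.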
